A study of Homo sapiens with 12 samples.

Results

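The genes described here are MYC and factors that make ribosomes, 36 genes in all of the 58721 in the deposited count table. They were chosen by symbol, with earlier results of these data known, and each symbol matched 1 Ensembl gene. By role they divide into MYC itself, 4 genes of RNA polymerase I transcription, 7 of the small nucleolar ribonucleoproteins (snoRNPs), 10 of small (40S) subunit assembly, 9 of large (60S) subunit assembly and 5 of other abundant nucleolar proteins. RNA was sequenced from HT-29, a line grown from a human colorectal cancer, and from LAD2, a line of human mast cells. The groups were HT-29 coculture (HT-29 after 12 hours in direct contact with LAD2, 3 libraries), HT-29 alone for the same time (3 libraries), LAD2 coculture (LAD2 after the same contact with HT-29) and LAD2 alone (3 libraries). No drug and no genetic change is named for any group. The 3 columns of LAD2 coculture were identical in every gene and count as 1 library, so 10 distinct libraries were compared. The lines were kept in different media and their RNA was taken with different kits. The labels state neither the coculture medium, nor how the lines were parted before extraction, nor whether the replicates were separate cultures, so the p-values below speak only of the spread among these libraries, which may be technical.

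MYC is a transcription factor that binds DNA together with MAX at the E-box sequence and is known to raise the transcription of genes for growth, above all those that build ribosomes. RNA polymerase I copies the ribosomal DNA in the nucleolus, snoRNPs modify and fold the transcript, and assembly factors cut it and join it with ribosomal proteins into the 40S and 60S subunits. Colorectal cancer cells commonly hold MYC high through Wnt signalling, whereas mature mast cells are long-lived and seldom divide.

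The libraries held 17.2 to 34.1 M counts (M, 1e6), and levels are given as counts per 1e6 counts of the library (CPM). The limit that a count of 0 allows, 3 counts, was 0.088 to 0.174 CPM, for counting error only. RNA of the other line was present in both cocultures. Its share was read from genes that only the other line expressed alone (at least 50 CPM there, not above 0.5 CPM in the line itself). It was 1.04, 1.09 and 1.19% in HT-29 coculture (309 genes) and 5.26% in LAD2 coculture (327 genes). The 10 mast cell markers summed to 227.7 to 248.1 CPM in HT-29 coculture, against 33.1 to 33.6 CPM in HT-29 alone and 17190 to 17520 CPM in LAD2 alone. The 10 epithelial markers summed to 1057 CPM in LAD2 coculture, against 225 to 248.7 CPM in LAD2 alone and 12390 to 12990 CPM in HT-29 alone, and all 10 markers of a line had counts in each of its libraries. In HT-29 alone 1 or 2 of the 10 mast cell markers had any count, and in LAD2 alone 3 to 6 of the 10 epithelial markers. In bulk RNA, a different number of cells of a type and a different amount of RNA per cell cannot be told apart. Below, the mixture level of a gene is what its levels in both lines alone give at this share of other-line RNA.

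The 36 genes were far more abundant in HT-29 than in LAD2 before any contact. Of the 36, 34 (94.4%) were higher in HT-29 alone and 0 were lower, against 44.9% and 47.5% of the 15830 genes tested (edgeR quasi-likelihood test, adjusted p under 0.05, here a call). No gene of the 36 was lower by DESeq2 or at an unadjusted p under 0.05. Their median log2 difference was 1.83, against −0.07 over all genes tested. Summed over the 36 genes, the level was 8434 ± 85.9 CPM in HT-29 alone, against 3336 ± 111 CPM in LAD2 alone (SD, n = 3 each). MYC stood farthest apart, with 334 ± 4.15 CPM in HT-29 alone, against 28.9 ± 1.01 CPM in LAD2 alone, a ratio of 11.6. The next largest ratios were 8.58 for RRP12, 6.62 for NHP2, 6.58 for FBL and 6.19 for NOLC1. NPM1 and PPAN were the exceptions, at ratios of 1.04 and 1.09, and neither passed the test.

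Per kilobase of exon, NPM1 led in both lines, at 378 CPM per kb in HT-29 alone and 362 CPM per kb in LAD2 alone. NCL, which encodes nucleolin, came next at 249 CPM per kb in HT-29 alone and 82.5 CPM per kb in LAD2 alone, followed by FBL at 189 and 28.8 CPM per kb. MYC was sixth in HT-29 alone at 111 CPM per kb, close to NHP2 at 112 and DDX21 at 107 CPM per kb, whereas in LAD2 alone it had 9.63 CPM per kb. The lowest genes were PPAN, at 1.18 CPM per kb in HT-29 alone and 1.09 in LAD2 alone, and NOP2, at 0.265 and 0.0844 CPM per kb. Both overlap other annotated genes on their own strand: NOP2 shares 2550 exon bases with an unnamed protein-coding gene, and PPAN shares 1447 with the PPAN-P2RY11 readthrough gene. Both overlapping genes were listed at 0 counts in every library, so the low levels of NOP2 and PPAN are uncertain.

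**Figure D1:**
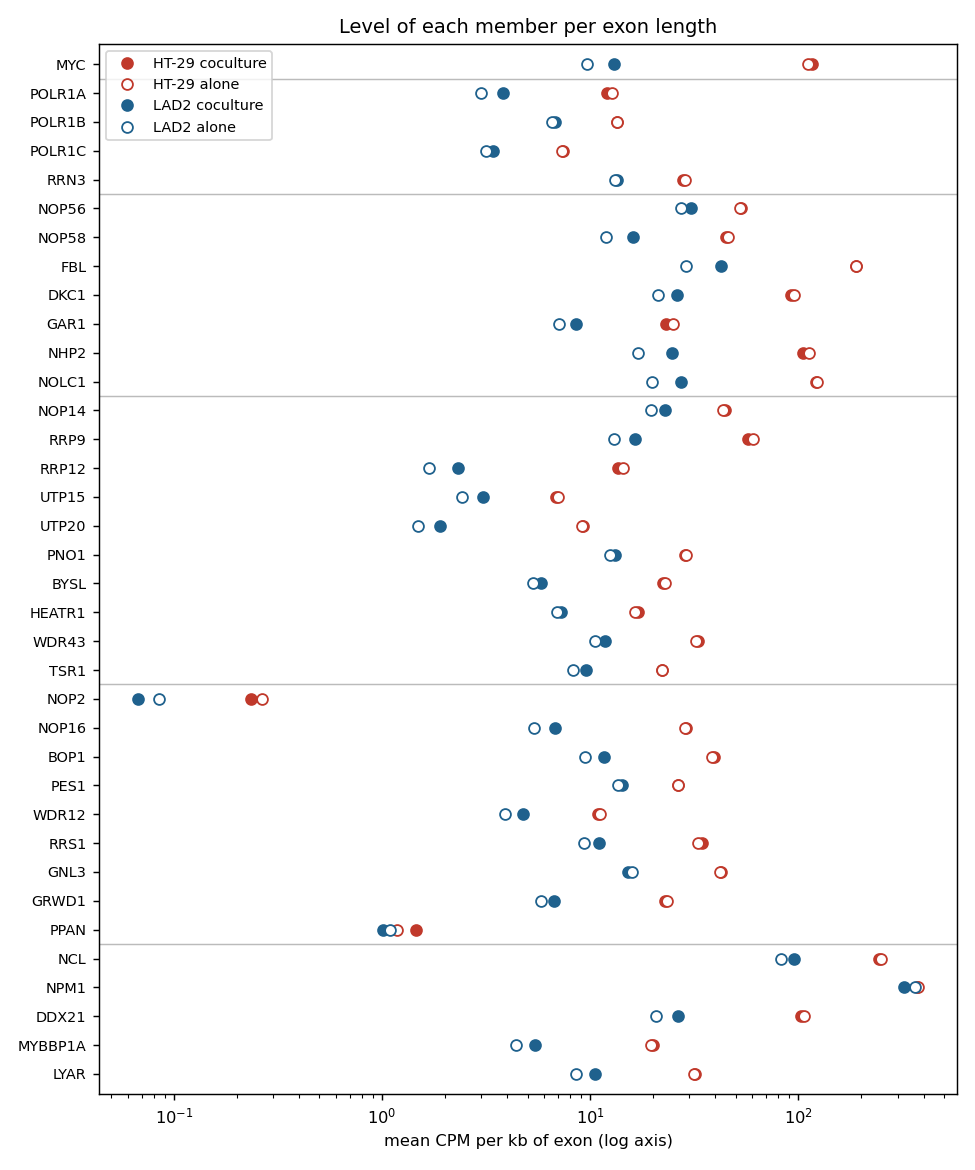
Mean level of each of the 36 genes per kilobase of exon in CPM per kb (log axis), by role, in HT-29 coculture, HT-29 alone, LAD2 coculture and LAD2 alone. The HT-29 points lie right of the LAD2 points, and closest to them for NPM1 and PPAN, whose ratios of HT-29 alone to LAD2 alone are 1.04 and 1.09.

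The promoters hold the E-box at a higher share than promoters at large. RefSeq promoter windows (GRCh38.p14, 250 bases before to 50 after a start) were matched for 30 of the 36 genes, and 14 of the 30 (46.7%) hold CACGTG, which reads the same on both strands, against 2396 of 27305 genes (8.77%). Most of the wider lists described below also stood above that share. It was 48.3% for MYC targets in metabolism and the cell cycle, 38.5% for 40S maturation and 31.0% for 60S maturation. The MYC network had 26.7%, the RNA exosome 15.4% and the RNA polymerase I machinery 7.14%. The windows below are examples only. NHP2 and RRP9 passed the test in both lines, as did POLR1A, RRP12 and DDX21, which are not shown. FBL had the highest LAD2 log2 change of the 36. The match lies close to the start in FBL, RRP9 and UTP20, as it does in WDR43, GNL3 and PNO1, which are not shown. Each window runs from 100 bases before to 12 after the start, with CACGTG in capitals.
FBL (chr19:39846368-39846479, minus strand): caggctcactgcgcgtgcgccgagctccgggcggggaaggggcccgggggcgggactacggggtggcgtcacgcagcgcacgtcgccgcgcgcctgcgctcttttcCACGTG
RRP9 (chr3:51941893-51942004, minus strand): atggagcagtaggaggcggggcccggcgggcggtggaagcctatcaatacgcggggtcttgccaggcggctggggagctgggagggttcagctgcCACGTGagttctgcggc
UTP20 (chr12:101280005-101280116, plus strand): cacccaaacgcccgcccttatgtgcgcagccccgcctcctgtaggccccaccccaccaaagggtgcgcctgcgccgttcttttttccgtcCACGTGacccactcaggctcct
NHP2 (chr5:178153874-178153985, minus strand): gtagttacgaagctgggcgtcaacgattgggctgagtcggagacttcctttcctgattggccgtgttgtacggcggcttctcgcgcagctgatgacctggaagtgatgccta
The first base of the match lies at position 7 of the FBL transcript, 5 bases before the RRP9 start and 10 bases before the UTP20 start, and the NHP2 window has no match. The 14 genes with a match and the 16 without one had like changes in coculture, with median log2 changes of −0.01 and −0.03 in HT-29 and of 0.23 and 0.20 in LAD2. A match is only a string of letters and says nothing of binding.

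The comparison of coculture with growth alone asks how contact changes each line. The changes were small and mostly not called in HT-29 and mostly upward in LAD2. In HT-29, 6 of the 36 (16.7%) fell in coculture, against 2.94% of the 14070 genes tested, and 0 rose, against 5.83% (edgeR quasi-likelihood test). At an unadjusted p under 0.05, 2 were higher and 10 lower, and DESeq2 called 0 higher and 2 lower, against 3.89% and 1.32% of all genes. The falls were small, at log2 changes of −0.07 to −0.12, and the median of the 36 was −0.02, against 0.00 over all genes. In 7 genes all HT-29 coculture libraries lay below all HT-29 alone libraries and in 4 they lay above, against 7.83% and 15.6% of all genes; in 25 they overlapped. The count of falls rests on single libraries: it was 0 without HT-29 alone replicate 2, 2 without HT-29 coculture replicate 1 and 3 without HT-29 coculture replicate 3. Over all genes 269, 285 and 335 then fell, against 413 with all libraries.

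In LAD2, 20 of the 36 (55.6%) rose in coculture, against 14.1% of the 15821 genes tested, and 0 fell, against 6.75% (edgeR quasi-likelihood test, 1 coculture library, which was assumed to vary like LAD2 alone). At an unadjusted p under 0.05, 25 were higher and 1 lower, and DESeq2 called 9 higher and 0 lower, against 9.39% and 2.96% of all genes. The median log2 change of the 36 was 0.24, against 0.00 over all genes tested. In 27 genes the LAD2 coculture library lay above all LAD2 alone libraries and in 2 (GNL3 and NPM1) below, against 37.8% and 30.6% of all genes. Summed over the 36 genes, the level was 3535 CPM in LAD2 coculture and 3336 ± 111 CPM in LAD2 alone (SD, n = 3). The call count was 13 without LAD2 alone replicate 1, where 1825 of all genes rose, against 2230 with all libraries. The LAD2 coculture library held 5.26% of HT-29 RNA. Relative to the mixture level 0 of the 36 were called higher and 0 lower (edgeR), against 2.83% and 3.35% of all genes. At an unadjusted p under 0.05, 2 were higher and 3 lower than that level (edgeR). The cause of the rise was not tested.

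**Figure D2:**
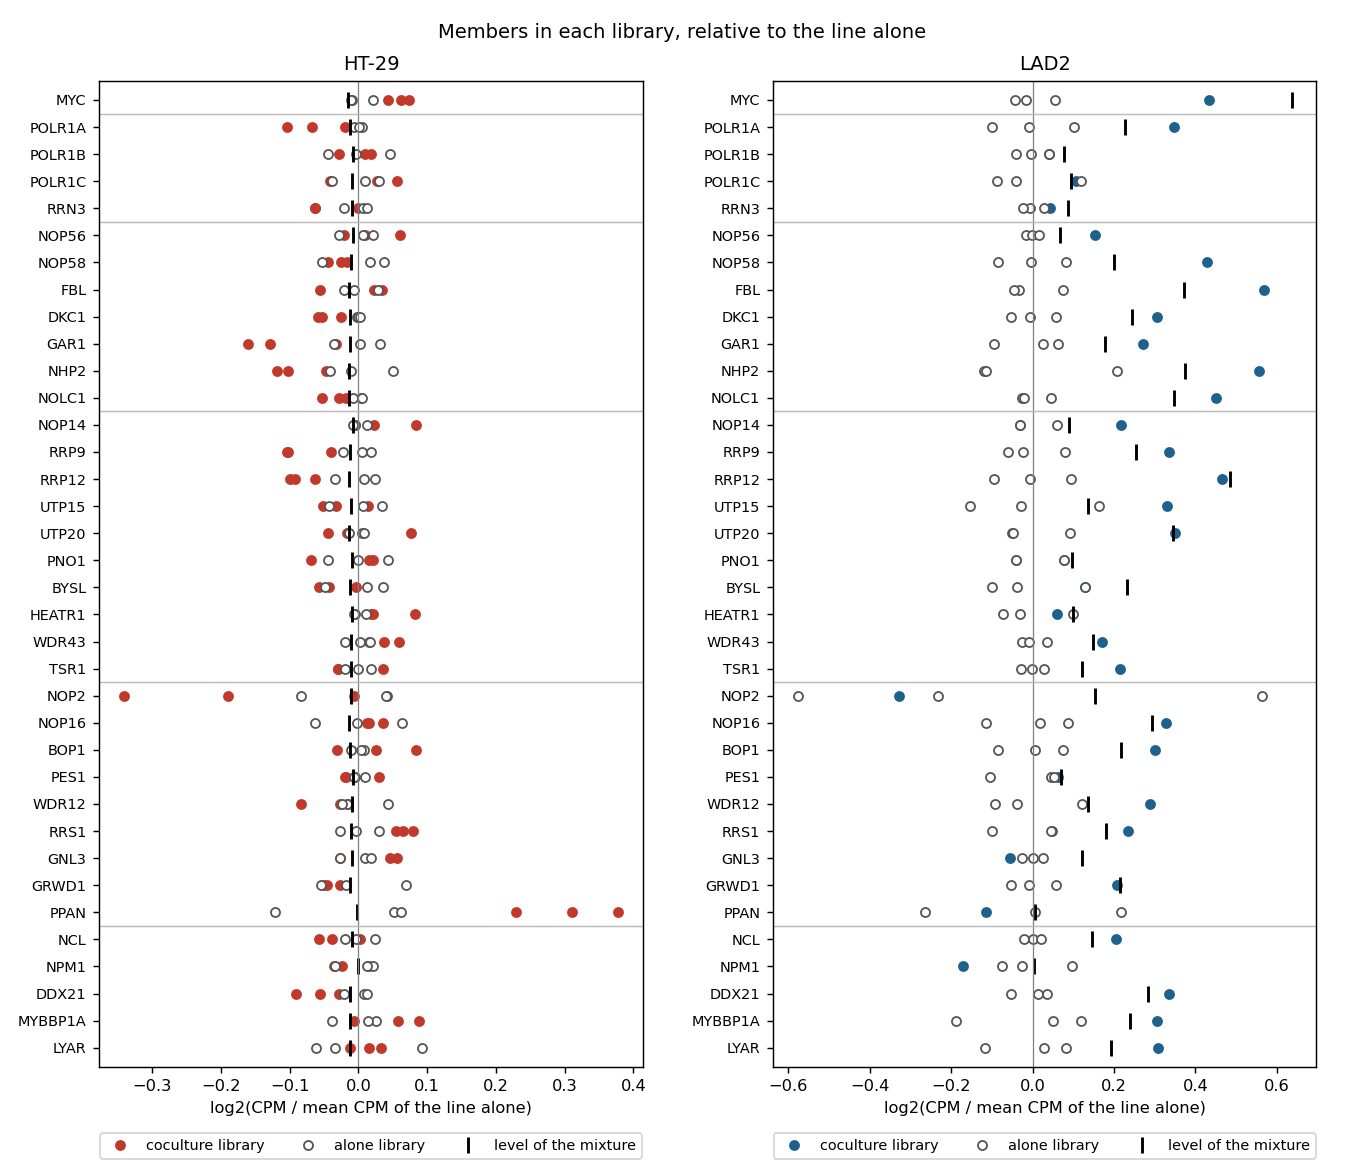
Log2 ratio of CPM to the mean of the same line alone for each of the 36 genes in every library, with coculture libraries filled, alone libraries open and the mixture level as a bar. In HT-29 most coculture points lie within 0.1 of the mean alone and overlap the open points, whereas in LAD2 the coculture point lies above all open points in 27 genes, mostly near the bar.

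MYC, the regulator of the group (ENSG00000136997, GRCh38 chromosome 8, 127735434 to 127741434, plus strand), had 352, 349 and 344 CPM in HT-29 coculture, against 332, 332 and 339 CPM in HT-29 alone. The groups did not overlap and the coculture libraries were the higher ones, but the log2 change of 0.05 (SE 0.02) did not pass the test (edgeR adjusted p = 0.149). It passed when the libraries were scaled by their totals alone, at a log2 change of 0.06 (edgeR adjusted p = 0.0459). In LAD2 coculture MYC had 39.1 CPM, against 28.1, 30.0 and 28.6 CPM in LAD2 alone. The coculture library lay above all others, and MYC rose by a log2 change of 0.42 (SE 0.08, edgeR adjusted p = 0.000103). That level was nevertheless below the 45.0 CPM of the mixture, 0.869 of it, and relative to the mixture the log2 change was −0.21 (edgeR adjusted p = 0.144).

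Of the 4 RNA polymerase I genes, POLR1A, the largest catalytic subunit, fell in HT-29 and rose in LAD2, and POLR1B, POLR1C and RRN3 passed the test in neither. POLR1A had 159.6, 164 and 169 CPM in HT-29 coculture, against 171, 172 and 172 CPM in HT-29 alone, a log2 change of −0.08 (SE 0.02, edgeR adjusted p = 0.0238). The coculture libraries were lower without overlap. It had 51.3 CPM in LAD2 coculture, against 37.6, 43.3 and 40.1 CPM in LAD2 alone, a log2 change of 0.34 (SE 0.08, edgeR adjusted p = 0.00122) at 1.09 of the mixture level. RRN3, the initiation factor that joins the polymerase to the promoter factors, had 114, 119.5 and 114 CPM in HT-29 coculture, against 120.1, 120.5 and 118 CPM in HT-29 alone, and the groups overlapped. It had 56.2 CPM in LAD2 coculture, against 55.7, 54.3 and 53.7 CPM in LAD2 alone, hardly above the highest of them. Its annotated pseudogenes held 8.36 to 18.1% as many counts as RRN3 itself, so part of its reads may be split between copies. POLR1C, a subunit that RNA polymerase III shares, had 19.0 CPM in LAD2 coculture, against 16.6, 17.1 and 19.1 CPM in LAD2 alone, within their range. It had 39.4, 42.1 and 41.3 CPM in HT-29 coculture, against 40.8, 41.3 and 39.4 CPM in HT-29 alone, with overlap. POLR1B, the other large catalytic subunit, had log2 changes of −0.01 in HT-29 and 0.03 in LAD2.

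Among the snoRNP genes 5 of 7 rose in LAD2, with a median log2 change of 0.42 over the 7, and 2 fell in HT-29. Box C/D snoRNPs methylate ribosomal RNA and H/ACA snoRNPs change its uridines to pseudouridine. FBL encodes fibrillarin, the methyltransferase of the box C/D particles (ENSG00000105202, GRCh38 chromosome 19, 39834458 to 39846414, minus strand). It had 92.8 CPM in LAD2 coculture, against 61.2, 60.6 and 65.9 CPM in LAD2 alone, a log2 change of 0.56 (SE 0.07, edgeR adjusted p = 2.17e-08), the largest of the 36. In HT-29 coculture it had 418, 422 and 396 CPM, against 419.8, 409.6 and 406 CPM in HT-29 alone, with overlap. The LAD2 coculture level was 1.15 of the mixture's 80.9 CPM, and relative to the mixture the log2 change of 0.19 did not pass the test (edgeR adjusted p = 0.125).

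NHP2, a core H/ACA protein (ENSG00000145912, GRCh38 chromosome 5, 178149460 to 178153967, minus strand), was called lower in HT-29 coculture and higher in LAD2 coculture. In HT-29 coculture it had 157, 163 and 156 CPM, against 168, 175 and 164 CPM in HT-29 alone, all coculture libraries being lower. The log2 change was −0.11 (SE 0.03, edgeR adjusted p = 0.00307), and NHP2 was the only one of the 36 still called in HT-29 relative to the mixture (log2 −0.09, edgeR adjusted p = 0.0318). The HT-29 call was lost without HT-29 alone replicate 2 (edgeR adjusted p = 0.123). It was also lost in a fit with 1 spread for all libraries (edgeR adjusted p = 0.116). In LAD2 coculture it had 37.5 CPM, against 23.5, 23.6 and 29.4 CPM in LAD2 alone, higher without overlap although 1 alone library stood above the others. There the log2 change was 0.54 (SE 0.10, edgeR adjusted p = 2.12e-05), at 1.13 of the mixture level. Relative to the mixture the LAD2 log2 change of NHP2 was 0.17 and was not called. GAR1, another core H/ACA protein, had 46.6, 49.8 and 45.6 CPM in HT-29 coculture, against 51.0, 52.0 and 49.7 CPM in HT-29 alone. The highest coculture library lay just above the lowest alone library, and the log2 change of −0.12 (SE 0.04) passed the test narrowly (edgeR adjusted p = 0.0434). In LAD2 coculture GAR1 had 17.5 CPM, against 13.6, 14.7 and 15.1 CPM in LAD2 alone, a log2 change of 0.26 that did not pass (edgeR adjusted p = 0.0924).

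NOLC1, a chaperone of snoRNPs in the nucleolus, had 108 CPM in LAD2 coculture, against 77.8, 81.7 and 77.9 CPM in LAD2 alone, a log2 change of 0.44 (SE 0.07, edgeR adjusted p = 1.12e-06) at 1.07 of the mixture level. In HT-29 coculture it had 480.0, 484 and 472 CPM, against 491, 491 and 487 CPM in HT-29 alone. The HT-29 coculture libraries were lower without overlap, but the log2 change of −0.05 did not pass (edgeR adjusted p = 0.162). NOP58, a core box C/D protein, stood highest of the 36 above the mixture in LAD2 coculture, at 1.17 of it, with 52.9 CPM in LAD2 coculture and 39.2, 41.6 and 37.1 CPM in LAD2 alone. DKC1, the pseudouridine synthase dyskerin, also rose in LAD2 (log2 0.29, edgeR adjusted p = 0.000916). In HT-29 all DKC1 coculture libraries were lower, at a log2 change of −0.06 (edgeR adjusted p = 0.0573). NOP56, the partner of NOP58, had log2 changes of 0.00 in HT-29 and 0.14 in LAD2, and neither passed.

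Of the 10 genes of 40S assembly, 2 fell in HT-29 and 6 rose in LAD2, where the median log2 change was 0.21. RRP12, whose yeast counterpart serves the export of pre-ribosomes from the nucleus (ENSG00000052749, GRCh38 chromosome 10, 97356358 to 97426076, minus strand), had 115, 114 and 117 CPM in HT-29 coculture, against 123, 125 and 119.8 CPM in HT-29 alone. The coculture libraries were lower without overlap, at a log2 change of −0.10 (SE 0.03, edgeR adjusted p = 0.00722). In LAD2 coculture it had 19.8 CPM, against 15.3, 14.2 and 13.4 CPM in LAD2 alone, higher without overlap, at a log2 change of 0.46 (SE 0.11, edgeR adjusted p = 0.00115). With MYC it was 1 of the 2 called genes below the mixture level, at 0.988 of it, and the log2 change relative to the mixture was −0.03. RRP9, a protein of the U3 snoRNP, had 89.4, 93.5 and 89.5 CPM in HT-29 coculture, against 96.4, 97.3 and 94.5 CPM in HT-29 alone. All coculture libraries were lower, and RRP9 fell by 0.10 on the log2 scale (SE 0.03, edgeR adjusted p = 0.028). In LAD2 coculture it had 26.0 CPM, against 21.7, 19.7 and 20.2 CPM in LAD2 alone, higher without overlap (log2 0.33, SE 0.10, edgeR adjusted p = 0.00997).

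NOP14, UTP15, UTP20 and TSR1, factors of the small subunit processome and its later particles, also rose in LAD2, at log2 changes of 0.20 to 0.34. The UTP20 level in LAD2 coculture, 19.0 CPM, equalled that of the mixture to 3 digits, and relative to it the log2 change was −0.01 (edgeR adjusted p = 0.99). WDR43, PNO1, BYSL and HEATR1 passed the test in neither line, with LAD2 log2 changes of 0.05 to 0.16. HEATR1 shares 2095 exon bases with LGALS8 and TSR1 shares 1146 with SRR on the opposite strand, and the sources used here do not state whether strand was used in counting, so reads of such pairs cannot be told apart.

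Among the 60S genes, 0 of 9 passed the test in HT-29 and 3 (NOP16, BOP1 and WDR12) rose in LAD2, with median log2 changes of 0.01 and 0.20. In HT-29, 1 of the 9 was higher and 0 were lower at an unadjusted p under 0.05, and DESeq2 called 0. BOP1 and WDR12 form the PeBoW complex with PES1, which is required to process the RNAs of the large subunit. BOP1 had 43.2 CPM in LAD2 coculture, against 35.2, 33.1 and 37.0 CPM in LAD2 alone, a log2 change of 0.29 (SE 0.08, edgeR adjusted p = 0.00782) at 1.06 of the mixture level. WDR12 had 43.2 CPM in LAD2 coculture, against 34.4, 33.2 and 38.5 CPM in LAD2 alone, a log2 change of 0.28 (SE 0.08, edgeR adjusted p = 0.0143) at 1.11 of the mixture level. In both genes the coculture library was the highest. NOP16, another nucleolar assembly factor, rose by a log2 change of 0.32 (edgeR adjusted p = 0.0298). PES1 did not pass, at a LAD2 log2 change of 0.05, and no PeBoW gene passed in HT-29. There BOP1 had 146, 151 and 139.9 CPM in HT-29 coculture, against 144, 143 and 142 CPM in HT-29 alone. WDR12 had 101, 99.8 and 96.0 CPM in HT-29 coculture, against 100.5, 99.99 and 105 CPM in HT-29 alone.

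GRWD1, a nucleolar chaperone, had 131, 133 and 131 CPM in HT-29 coculture, against 142, 134 and 130.5 CPM in HT-29 alone, with overlap. In LAD2 coculture it had 38.8 CPM, against 33.4, 34.9 and 32.4 CPM in LAD2 alone, the highest value, at a log2 change of 0.20 that did not pass (edgeR adjusted p = 0.084). PPAN, known for a role in large subunit maturation, was higher in all HT-29 coculture libraries, with 3.58, 3.79 and 3.97 CPM against 3.17, 2.81 and 3.19 CPM in HT-29 alone, and this log2 change of 0.31 (SE 0.14) did not pass (edgeR adjusted p = 0.191). In LAD2 coculture PPAN had 2.60 CPM, against 2.83, 3.27 and 2.34 CPM in LAD2 alone, within their range. NOP2, a methyltransferase of large subunit RNA, had 0.981, 1.24 and 1.09 CPM in HT-29 coculture, against 1.28, 1.17 and 1.28 CPM in HT-29 alone, with overlap. It had 0.315 CPM in LAD2 coculture, against 0.585, 0.337 and 0.265 CPM in LAD2 alone, too low for its SE of 0.70 on the log2 scale to show a change of this size. RRS1, which helps to bring the 5S particle into the subunit, and GNL3, the GTPase nucleostemin, did not pass in either line, with LAD2 log2 changes of 0.22 and −0.07.

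Of the 5 other nucleolar proteins, 1 fell in HT-29 and 4 rose in LAD2. DDX21, a helicase that acts in ribosomal RNA transcription and processing, had 518, 528 and 505 CPM in HT-29 coculture, against 541, 543 and 531 CPM in HT-29 alone, lower without overlap (log2 −0.07, SE 0.02, edgeR adjusted p = 0.0196). In LAD2 coculture it had 132 CPM, against 106, 101 and 107 CPM in LAD2 alone, higher than each (log2 0.33, SE 0.07, edgeR adjusted p = 0.000172), at 1.04 of the mixture level. NCL, an abundant chaperone of the early transcript, had 658 CPM in LAD2 coculture, against 563, 572 and 579.5 CPM in LAD2 alone, a log2 change of 0.19 (SE 0.06, edgeR adjusted p = 0.0188). In HT-29 coculture it had 1680.0, 1727 and 1657 CPM, against 1754, 1721 and 1701 CPM in HT-29 alone, with overlap. MYBBP1A, known as a partner of MYB in the nucleolus, had 33.8 CPM in LAD2 coculture, against 29.7, 28.3 and 24.0 CPM in LAD2 alone, higher than each (log2 0.30, SE 0.09, edgeR adjusted p = 0.0171). It had 126, 120.4 and 128 CPM in HT-29 coculture, against 123, 122 and 118 CPM in HT-29 alone, with overlap. LYAR, a nucleolar zinc finger protein, rose in LAD2 at a log2 change of 0.30 (edgeR adjusted p = 0.0255).

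NPM1, nucleophosmin, a histone chaperone and the gene of the 36 with the highest level per kilobase of exon in both lines alone (ENSG00000181163, GRCh38 chromosome 5, 171387116 to 171411137, plus strand), had another pattern. It had 1233 CPM in LAD2 coculture, against 1316, 1362 and 1483 CPM in LAD2 alone, the lowest value, at a log2 change of −0.18 (SE 0.07) that did not pass the test (edgeR adjusted p = 0.0545). Without LAD2 alone replicate 3 it passed, at a log2 change of −0.13 (edgeR adjusted p = 0.00803). In HT-29 coculture it had 1422, 1461 and 1411 CPM, against 1467, 1458 and 1412 CPM in HT-29 alone, with overlap. The lines had nearly the same level alone, so that the mixture level in LAD2, 1390.0 CPM, was close to the level alone, and the LAD2 coculture library had 0.887 of it.

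Across the 36 genes the LAD2 change was larger where HT-29 alone stood higher above LAD2 alone. The median fold of LAD2 coculture over LAD2 alone was 1.19, while the mixture gave a median fold of 1.13 with a range of 1.00 to 1.56. Observed and mixture folds had a Pearson r of 0.728 and a Spearman rho of 0.843 over the 36 genes, which are not independent and share their libraries and the LAD2 alone means. Of the 36 genes, 23 lay above the mixture level in LAD2 coculture and 13 below. Of the 20 called genes, 18 lay above it and 2 (MYC and RRP12) below, at 0.869 to 1.17 of it. These 20 were picked by their rise in the same library, which favours a place above the mixture, so their split is no separate result. In HT-29 coculture, where the share was 1.11 ± 0.0737% (SD, n = 3), the mixture fold was 0.99 to 1.00. There 18 of the 36 genes lay above the mixture level and 18 below. The 6 genes called in HT-29, picked by their fall in the same libraries, lay at 0.937 to 0.969 of it. Relative to the mixture, 1 of the 36 was called lower and 0 higher in HT-29 (edgeR; 7 lower and 2 higher at an unadjusted p under 0.05), against 1.51% and 1.31% of all genes.

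**Figure D3:**
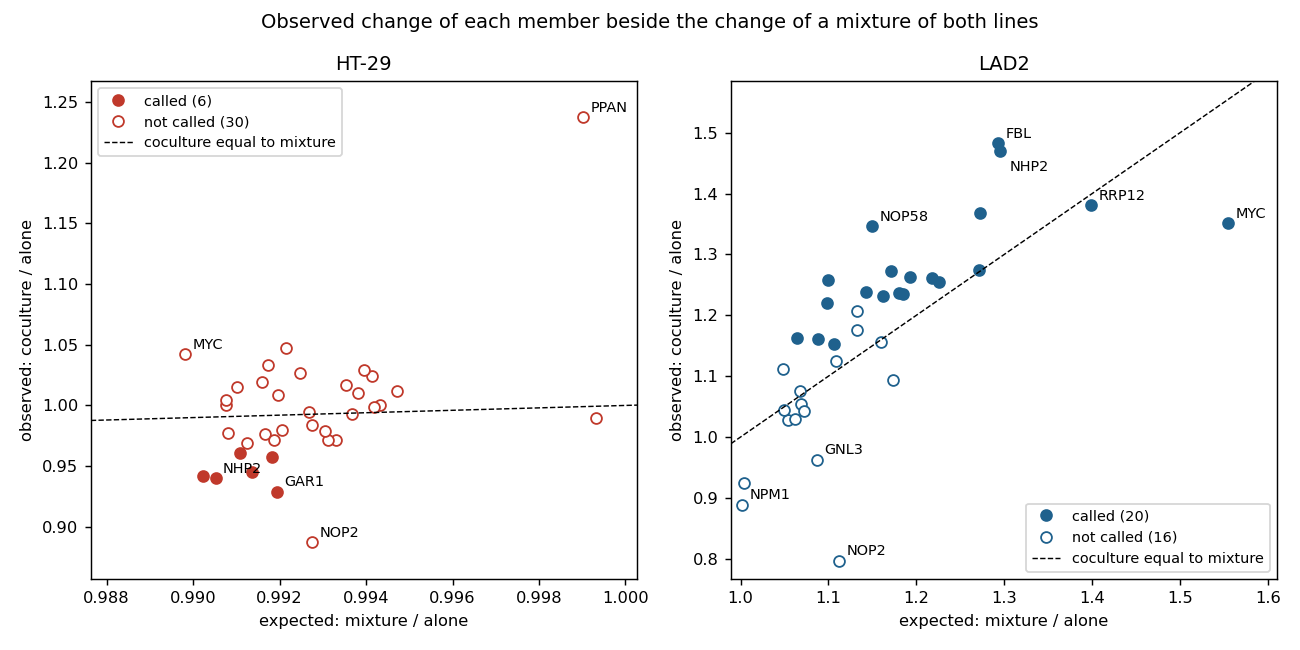
Observed fold (coculture over alone, vertical axis) against the fold of the mixture of both lines (horizontal axis) for the 36 genes in HT-29 and in LAD2, with called genes filled and the dashed line where both are equal. In LAD2, MYC lies at a mixture fold of 1.56 below the line, whereas FBL, NHP2 and NOP58 lie above it; in HT-29 the mixture folds span only 0.99 to 1.00.

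The difference between the responses was tested over the 10 libraries as the log2 change of LAD2 minus that of HT-29. It was positive and called in 32 of the 36 (88.9%), against 33.7% of the 17435 genes tested, and negative and called in 0, against 7.11% (edgeR quasi-likelihood test; 0 by DESeq2, against 9.13%, and 0 at an unadjusted p under 0.05). This fit, scaled by the trimmed mean of M values (TMM), moved all genes upward, with a median of 0.17 over all genes and of 0.44 over the 36. With size factors by relative log expression (RLE) these medians were 0.04 and 0.30, and 23 of the 36 were called higher, against 19.2% of all genes. With library totals alone they were 0.00 and 0.26, and 23 were called higher and NPM1 lower, against 16.9% and 11.6% of all genes. The shift also went with single libraries: the median over all genes was −0.09 without HT-29 alone replicate 1 or replicate 3 and −0.10 without HT-29 coculture replicate 3. Of the 36, 13, 12 and 11 were then called higher. Over all genes 2038, 2061 and 1954 were, against 5877 with all libraries. The largest differences were those of NHP2 (0.82, SE 0.09), FBL (0.74, SE 0.07) and RRP12 (0.73, SE 0.09), with edgeR adjusted p of 3.86e-11, 4.04e-14 and 3.71e-09. The smallest were PPAN (−0.25, SE 0.27), NPM1 (0.02, SE 0.06) and NOP2 (0.03, SE 0.67), which did not pass. When both responses were taken relative to the mixture, 17 of the 36 were called higher with TMM scaling, against 21.3% of all genes. With library totals alone NOP58 was called higher (log2 0.25, edgeR adjusted p = 0.0224) and MYC lower (log2 −0.28, edgeR adjusted p = 0.00713), 1 gene each, against 2.88% and 2.84% of all genes.

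Wider lists held other genes of the same pathways, none of them among the 36. In LAD2, 15 of 47 further genes of 60S maturation rose and 1 fell, 12 of 46 of the small subunit processome and 40S maturation rose and 0 fell, and 2 of 15 of the RNA exosome rose and 0 fell, with median log2 changes of 0.10, 0.10 and 0.05. The shares over all genes tested were 14.1% higher and 6.75% lower, and the 2 of 15 (13.3%) are near them. At an unadjusted p under 0.05, 0 of the 46 and 1 of the 15 were lower. DESeq2 called 6 of the 47 higher and 1 lower, 3 of the 46 higher and 0 lower, and 0 of the 15 in either direction. Relative to the mixture, 2 of the 47, 1 of the 46 and 0 of the 15 were called higher and 0 lower (edgeR; 3, 4 and 0 higher and 3, 1 and 0 lower at an unadjusted p under 0.05), against 2.83% and 3.35% of all genes. MRTO4, a placeholder for a ribosomal stalk protein in the nascent large subunit, had 28.5 CPM in LAD2 coculture and 14.9 ± 1.86 CPM in LAD2 alone (SD, n = 3), a log2 change of 0.93 (edgeR adjusted p = 1.39e-09). MDN1, the AAA ATPase that strips factors from the large subunit, had 31.6 CPM in LAD2 coculture and 20.9 ± 3.05 CPM in LAD2 alone (SD, n = 3; log2 0.59, edgeR adjusted p = 1.64e-05), at 1.28 of the mixture level. GTPBP4, a GTPase of the same pathway, rose by a log2 change of 0.30. The helicase DDX10 (log2 0.53) and the processome proteins UTP4 (0.36) and MPHOSPH10 (0.28) had the smallest p of the small subunit list, and EXOSC5 (0.45) and EXOSC4 (0.70) were the called exosome subunits.

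In HT-29 the same lists had few calls: 3 of 47 genes of 60S maturation fell and 1 rose, 2 of 46 small subunit genes fell and 0 rose, and 0 of 15 exosome genes passed (edgeR; 0 of the 46 higher and 1 of the 15 lower at an unadjusted p under 0.05), against 2.94% of all genes lower and 5.83% higher. DESeq2 called 1 of the 47 lower and 0 higher, and 0 of the 46 and 0 of the 15 in either direction. DDX18, a helicase of the large subunit, had 222 ± 2.94 CPM in HT-29 coculture and 238 ± 3.12 CPM in HT-29 alone (SD, n = 3 each; log2 −0.12, edgeR adjusted p = 7.77e-05). EIF6, which keeps 60S subunits from joining too early, fell by 0.09 on the log2 scale, and the helicase DDX51 rose by 0.11. AATF and SNU13, the called small subunit genes, both had log2 changes of −0.08.

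Of 16 further genes of the RNA polymerase I machinery, 3 (18.8%) rose and 1 (6.25%) fell in LAD2, against 14.1% and 6.75% of all genes, and 1 rose and 1 fell in HT-29 (6.25% each), against 5.83% and 2.94%. These shares are mostly near those of all genes. DESeq2 called 3 higher and 1 lower in LAD2 and 1 higher and 0 lower in HT-29, and relative to the mixture 1 was called higher and 1 lower in LAD2 (edgeR). POLR2L, a small subunit shared by all nuclear RNA polymerases, rose in both, at log2 changes of 0.15 in HT-29 (edgeR adjusted p = 1.64e-05) and 0.28 in LAD2 (edgeR adjusted p = 0.00172). POLR2F, another shared subunit, fell in HT-29 at a log2 change of −0.12. POLR1G, a subunit specific to RNA polymerase I, had 12.7 CPM in LAD2 coculture and 6.86 ± 0.392 CPM in LAD2 alone (SD, n = 3), at 0.936 of the mixture level. TAF1C, a subunit of the polymerase I promoter factor, fell in LAD2 at a log2 change of −0.30.

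Of the 32 targets of MYC in metabolism and the cell cycle, 18 (56.2%) rose in LAD2 and 0 fell, against 14.1% and 6.75% of all genes, with a median log2 change of 0.23. In HT-29, 4 of 30 tested (13.3%) fell and 0 rose, against 2.94% and 5.83% of all genes, with a median of −0.04. At an unadjusted p under 0.05, 1 was lower in LAD2 and 0 were higher in HT-29. DESeq2 called 16 higher and 0 lower in LAD2, and 4 lower and 0 higher in HT-29. SLC2A1, the glucose transporter GLUT1, had 29.7 CPM in LAD2 coculture and 1.17 ± 0.204 CPM in LAD2 alone (SD, n = 3), which was 0.996 of the mixture level. HSPD1, a mitochondrial chaperonin, rose by a log2 change of 1.04 in LAD2 at 1.13 of the mixture level, and ODC1, the first enzyme of polyamine synthesis, by 0.74 at 1.16 of it. In HT-29, SLC2A1 fell by 0.14, ODC1 by 0.11 and LDHA, lactate dehydrogenase A, by 0.09 on the log2 scale. Relative to the mixture, 5 of the 32 were called higher in LAD2, against 2.83% of all genes, and 3 of 30 lower in HT-29, against 1.51%.

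The MYC network list held 17 genes, among them paralogs, partners, antagonists and regulators of MYC. In LAD2, 2 of the 17 rose and 2 fell (11.8% each), against 14.1% and 6.75% of all genes, with a median log2 change of −0.06. DESeq2 called 0 in either direction (edgeR without adjustment, at p under 0.05, had 3 higher and 4 lower), and relative to the mixture 0 were called higher and 1 lower (edgeR; 2 higher and 4 lower at an unadjusted p under 0.05). PVT1, a long noncoding RNA beside MYC, had 32.9 CPM in LAD2 coculture and 25.9 ± 0.712 CPM in LAD2 alone (SD, n = 3; log2 0.34, edgeR adjusted p = 0.00339), at 1.22 of the mixture level. MLXIP, which pairs with MLX, rose by 0.29, and MXD1, which competes with MYC for MAX, fell by 0.33 on the log2 scale (edgeR adjusted p = 0.00955). In HT-29 only MYCN, a paralog of MYC, was called: it had 0.648 ± 0.0933 CPM in HT-29 coculture and was at 0 counts in the 3 HT-29 alone libraries, with 67.8 CPM in LAD2 alone. That coculture level was 0.864 of the mixture level.

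**Figure D4:**
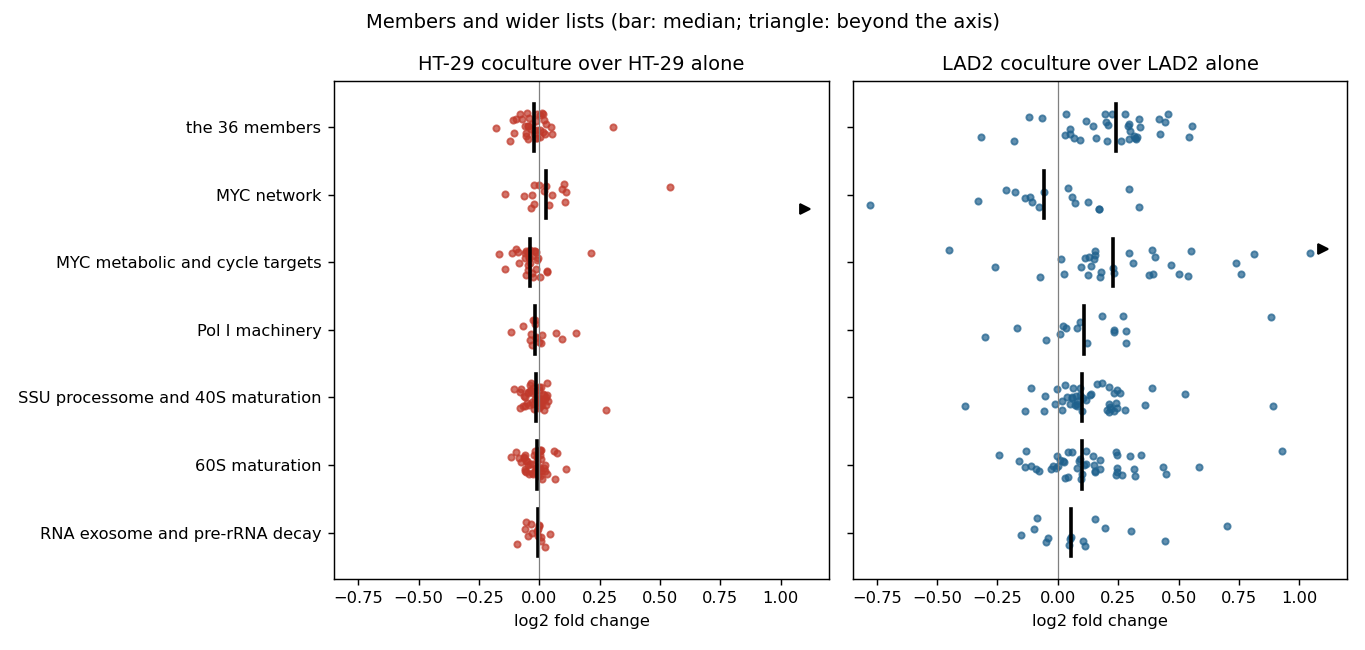
Log2 change in coculture of each gene, for the 36 genes and the 6 wider lists, in HT-29 and LAD2, with black bars at the medians and triangles for genes beyond the axis (MYCN in HT-29, SLC2A1 in LAD2). The LAD2 medians are 0.24 for the 36 genes, 0.23 for the metabolic and cycle targets and −0.06 for the MYC network, and the HT-29 medians lie between −0.04 and 0.03.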

How the data were processed

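Raw gene counts, without normalization, were deposited by the authors as 1 table of 58721 genes and 12 columns. Per the submitters' processing notes, FastQC 0.11.9, STAR 2.7.10a, DESeq2 3.24.0 and hg38 were used; for the counting program, the annotation and the use of strand, the answer is not given in the sources used here. All 58721 identifiers matched GENCODE 29 (GRCh38), after the same removal of version characters that left a stray digit on 12846 of them. Of the LAD2 coculture columns, 2 that equalled another were left out. The test of each line on its own used edgeR 4.0.16 (R 4.3.3; TMM, filterByExpr, two-sided quasi-likelihood F test, Benjamini-Hochberg adjustment over all genes tested, calls at 0.05), as did the test between the lines alone; the difference of responses was an interaction over 10 libraries with 1 spread, so its p-values may be too small for LAD2. The fits gave a biological coefficient of variation of 1.7% for HT-29 and 4.03% for LAD2. The test relative to the mixture used the log mixture level as an offset (0.01 CPM added). All 36 genes passed the filter in every comparison. Alternatives were other scaling, no filter, DESeq2 1.42.0, leaving out each library, a replicate block, 1 spread for all libraries and the offset; 2 offset fits of the interaction were added after seeing the data. The procedure was tested on simulated counts. Full values are given for MYC, genes called in HT-29, the 2 smallest p per role and coculture comparison, and the 3 most positive and 3 most negative interaction differences; other lists give up to 3 calls with the smallest p. NOP58 was singled out after its values were seen. The genes and lists were chosen with earlier results of these data known.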

Additional observations from a re-analysis of the deposited data

Results flagged for a closer look

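For 32 of the 36 genes the log2 change in LAD2 minus that in HT-29 passed the test (edgeR quasi-likelihood test of the interaction), all of them positive. Over all genes tested 33.7% were called higher and 7.11% lower. The differences given here stand against a median of 0.17 over all genes tested with this scaling. MYC differed by 0.55. Of the RNA polymerase I genes, POLR1A differed by 0.59, POLR1C by 0.27, RRN3 by 0.26 and POLR1B by 0.21. The snoRNP genes had 0.82 for NHP2, 0.74 for FBL, 0.66 for NOLC1, 0.64 for NOP58, 0.55 for GAR1, 0.53 for DKC1 and 0.31 for NOP56.

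Among the 40S genes the difference was 0.73 for RRP12, 0.60 for RRP9, 0.53 for UTP15 and for UTP20, 0.40 for TSR1, 0.36 for NOP14, 0.34 for BYSL, 0.31 for WDR43, 0.26 for PNO1 and 0.20 for HEATR1. Among the 60S genes it was 0.50 for WDR12, 0.48 for NOP16, 0.45 for BOP1, 0.43 for GRWD1, 0.34 for RRS1 and 0.24 for PES1. The nucleolar proteins had 0.57 for DDX21, 0.47 for LYAR, 0.44 for MYBBP1A and 0.41 for NCL. The share of other-line RNA also differed, at 5.26% in LAD2 coculture and 1.11% in HT-29 coculture. Its part in these differences was not tested. With both responses taken relative to the mixture, 17 of the 36 were called higher with this scaling, against 21.3% of all genes. With library totals alone, also relative to the mixture, 1 was called higher and MYC lower (log2 −0.28), against 2.88% and 2.84% of all genes.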

How the results depend on the processing

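The 34 genes of the 36 called higher in HT-29 alone than in LAD2 alone were 34 or 35 under each alternative run. In HT-29, the count of falls (6 as reported) was 2 with library totals alone, where 1 gene (MYC) was called higher, 2 with DESeq2, 1 relative to the mixture, 0 with 1 spread for all libraries and 0 to 6 when a library was left out. Over all genes, falls were 265, 186, 213 and 151 in these 4 settings, against 413 as reported, and 269 to 415 without a library; rises were 184 relative to the mixture, against 820. In LAD2, rises of the 36 (20 as reported) were 9 with DESeq2, 0 relative to the mixture, 32 with 1 spread for all libraries, a fit that also rescales them, and 13 to 23 without a library; falls were 0 to 1. Over all genes in LAD2, rises were 1485, 447 and 6998 in these settings, against 2230, and falls 469, 530 and 446, against 1068 as reported and 674 to 1674 without a library. Among the genes called in LAD2, the log2 changes of MYC (−0.21), RRP12 (−0.026) and UTP20 (−0.0051) turned negative relative to the mixture. Some uncalled genes with a positive LAD2 log2 change also lay below the mixture level. They were BYSL (0.931 of it), RRN3 (0.969), HEATR1 (0.973), POLR1B (0.975), PNO1 (0.987), PES1 (0.995) and GRWD1 (0.996).

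The interaction depended on the scaling, the filter on low counts, the mixture setting and single libraries. Over all genes, calls higher were 5877 as reported, 3343 with RLE, 2941 with library totals, 1744 without the filter on low counts, 2903 with DESeq2, 3707 relative to the mixture, 502 relative to the mixture with library totals, and 1954 to 6359 without a library. Calls lower were 2025 with library totals, 2109 without the filter, 209 and 495 in the 2 mixture settings and 1065 to 2962 without a library, against 1240. Of the 36, 10 were called higher without the filter, 17 and 1 in the mixture settings and 11 to 32 without a library; 1 was called lower with library totals, without the filter and relative to the mixture with library totals, and 0 to 1 without a library. The cause was not tested.

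Differences that turned negative without the filter were −0.056 for POLR1B, −0.0079 for RRN3, −0.0084 for PNO1, −0.0705 for HEATR1, −0.0304 for PES1 and −0.25 for NPM1, which was −0.16 with library totals. Without a library they ranged from −0.0852 to 0.24 for POLR1B, from −0.0076 to 0.35 for POLR1C, from −0.0342 to 0.29 for RRN3, from −0.0515 to 0.31 for PNO1, from −0.0773 to 0.24 for HEATR1, from −0.0551 to 0.28 for PES1 and from −0.28 to 0.0834 for NPM1. MYC had −0.10 relative to the mixture and −0.28 with library totals as well, where POLR1B had −0.047, POLR1C −0.0088, RRN3 −0.0105, UTP20 −0.0101, PNO1 −0.022, BYSL −0.08, HEATR1 −0.086, WDR43 −0.0255, NOP16 −0.0031, PES1 −0.0147 and RRS1 −0.0235.

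With the replicate number as a block 7 of the 36 fell in HT-29 (DKC1 added, log2 −0.06, edgeR adjusted p = 0.0307), and 34 were higher in HT-29 alone than in LAD2 alone. Deviations of each gene from its group mean had correlations of 0.00775, 0.00822 and 0.0329 between same-numbered HT-29 coculture and alone libraries. Between differently numbered ones they were −0.0242 to 0.019. So few libraries cannot decide whether the numbers pair the samples. No paired analysis was possible for LAD2 coculture or the interaction because LAD2 coculture has 1 distinct library. Depth limits NOP2 and PPAN, below 4 CPM in every library.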
